A study of Mus musculus with 6 samples.

Results

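The 49 genes described here encode receptors for serotonin, dopamine, noradrenaline and adrenaline, and acetylcholine. They were taken from the 23235 genes of the authors' expression table by a rule on symbols that holds no measured value, although the receptor families were picked with earlier results of these data known. They comprise 14 serotonin receptor genes, 5 dopamine receptor genes, 9 adrenergic receptor genes, 5 muscarinic and 16 nicotinic acetylcholine receptor genes. Levels are the authors' FPKM (fragments per kilobase of transcript, scaled for sequencing depth), given as 1 value per gene and genotype, so no value below has an error between mice and none has a replicate check here. Ratios are given for the 32 genes with 0.5 FPKM or more in either genotype, and the other 17 are given by level only. Nearest to this floor, by the higher of both values, were Chrna1 at 0.529 FPKM inside it and Chrnb1 at 0.421 FPKM outside it.

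Hippocampus was taken from 3 Nes-cKO mice (Rbfox1 fl/fl; Nes/+) and 3 wildtype mice (Rbfox1 fl/fl; +/+), all males of 60 to 70 days. All 6 mice carried the loxP-flanked Rbfox1 alleles, and the genotypes differed by the Nes allele, which stands for Cre recombinase under Nestin control and acts in progenitors of the nervous system. The controls carried no Cre, so the loss of Rbfox1 and the Nes allele itself cannot be told apart. Rbfox1, an RNA-binding protein of neurons that regulates splicing and messenger RNA level, stood at 23.0 FPKM in Nes-cKO and 67.5 FPKM in wildtype hippocampus, so 34.0% of the wildtype signal remained in the gene-level value. All 15 hippocampal marker genes looked up had 0.5 FPKM or more. Of these, Spink8, Cpne4 and Fibcd1 were lower in Nes-cKO at the q-value threshold of 0.05 in the authors' deposited table. The other 12 did not pass. Values were higher in Nes-cKO for 9 of the 15 and lower for 6.

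Monoamines and acetylcholine reach the hippocampus in axons from the brainstem and basal forebrain, where most of the cell bodies that make them lie. Most of their receptors are coupled to G proteins: Gs-coupled receptors raise cyclic AMP, Gi/o-coupled receptors lower it and open potassium channels, and Gq-coupled receptors activate phospholipase C. Nicotinic receptors and the Htr3 receptor are instead ion channels built of several subunits. In the hippocampus these receptors set the excitability of principal cells and interneurons and gate synaptic plasticity.

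Of the 49 receptor genes, 6 differed between the genotypes at a q of 0.05 in the authors' deposited table. Drd1a, Adra2c, Htr5a and Adra1b were higher in Nes-cKO, and Htr5b and Htr1f were lower. These are 6 of the 32 genes past the floor, 18.8%, against 7.06% of all 13874 tested genes past the same floor, of which 4.67% were higher and 2.39% lower. Since the families were picked with results known, these shares are a description. All 6 encode G protein-coupled receptors, as do 26 of the 32 genes past the floor. None of the 6 ion channel subunit genes past the floor passed in the authors' test (Cuffdiff is among the tools in the submitters' processing notes), although 2 had an unadjusted p of 0.05 or less, Chrna1 and Chrna7. None of the 5 muscarinic receptor genes passed, and 1, Chrm5, had an unadjusted p of 0.05 or less. With 7.06% of all tested genes past the floor passing, 0 of 6 and 0 of 5 genes were near that share. At that unadjusted p stood 13 of the 32 receptor genes, against 14.7% of all tested genes past the floor. In bulk tissue, fewer cells of a type and less RNA per cell cannot be told apart, which holds for every gene below.

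**Figure D1:**
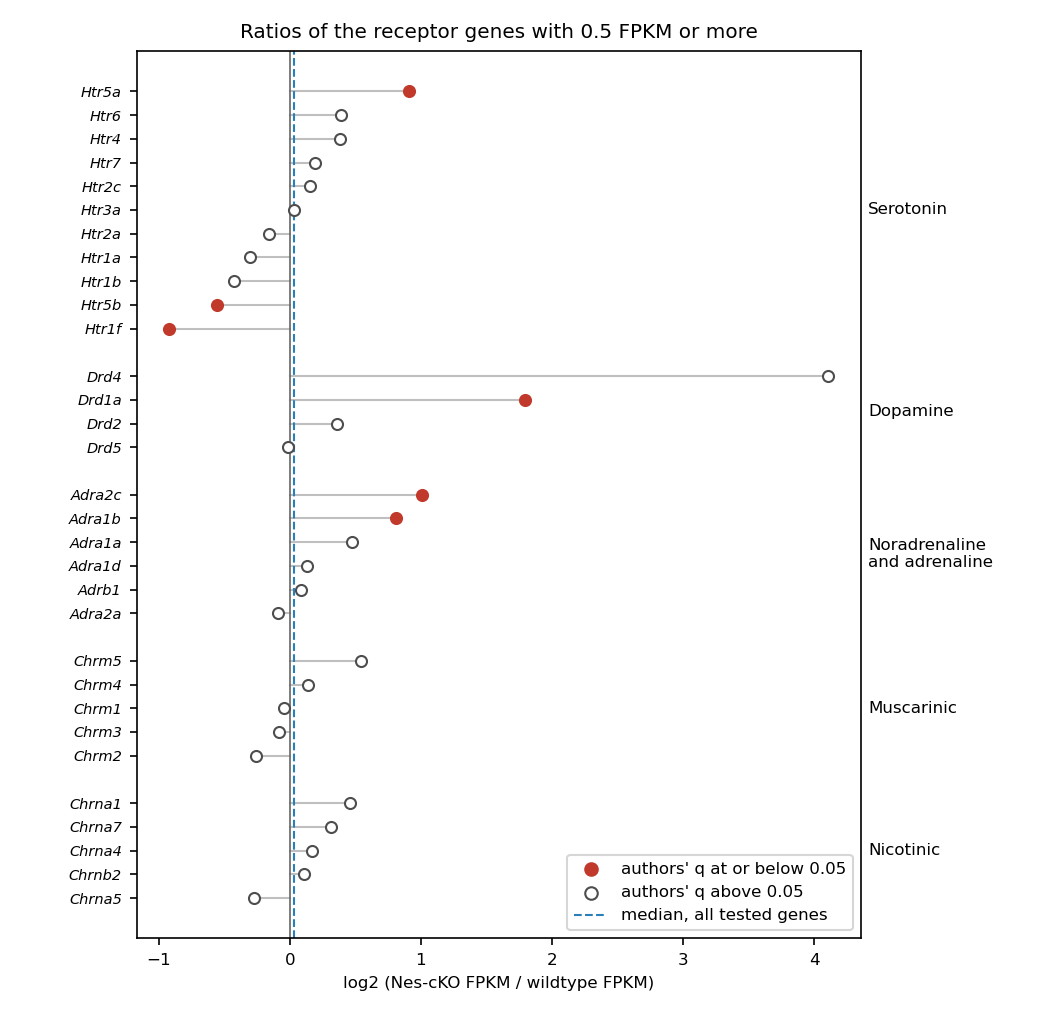
Log2 ratio of the Nes-cKO over the wildtype FPKM (horizontal axis) for 31 of the 32 receptor genes with 0.5 FPKM or more in either genotype, grouped by transmitter; filled points have an authors' q at or below 0.05 and the dashed line is the median of all tested genes past the same floor. Drd1a has the longest filled bar, at 1.80, and the longest open bar is Drd4, at 4.11.

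The dopamine receptor genes divided into 1 that rose and the rest that did not pass. Drd1a, which encodes the main Gs-coupled dopamine receptor of the forebrain, stood at 3.74 FPKM in Nes-cKO and 1.08 FPKM in wildtype hippocampus, a ratio of 3.47, with q = 0.00152 in the authors' deposited table. This q is the smallest the table holds, shared by 491 genes. The gene lies on mm9 chromosome 13 from 54146553 to 54151027. Drd5, which encodes the other Gs-coupled dopamine receptor, stood at 5.14 FPKM in Nes-cKO and 5.20 FPKM in wildtype, and its q was 0.997 in the authors' deposited table. The level of Drd1a was therefore 0.728 of that of Drd5 in Nes-cKO and 0.207 of it in wildtype.

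The Gi/o-coupled dopamine receptor genes were low. Drd2 had 1.34 FPKM in Nes-cKO and 1.04 FPKM in wildtype, with q = 0.577 in the authors' deposited table. Drd4 had 0.549 FPKM in Nes-cKO and 0.0318 FPKM in wildtype. Its ratio of 17.2 is the highest of the 32 genes, yet its p of 0.0441 and q of 0.312 in the authors' deposited table did not pass. Drd4 passed the floor through its Nes-cKO value alone. The genes nearest to it, Deaf1 (18.2 FPKM in Nes-cKO and 18.2 FPKM in wildtype) and Tmem80 (14.2 FPKM in Nes-cKO and 14.7 FPKM in wildtype), did not pass either. Drd3 stayed under the floor, at 0.0597 FPKM in Nes-cKO and 0.0200 FPKM in wildtype.

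Drd1a is also a gene of striatal projection neurons, so genes of the striatum were read beside it. Of 9 striatum markers past the floor, the opioid precursor gene Penk rose, to 36.4 FPKM in Nes-cKO against 15.2 FPKM in wildtype. Scn4b, a sodium channel subunit gene, fell, to 2.04 FPKM in Nes-cKO against 4.55 FPKM in wildtype. The other 7 did not pass, among them Adora2a (0.543 FPKM in Nes-cKO and 0.475 FPKM in wildtype) and Rgs9 (4.85 FPKM in Nes-cKO and 4.52 FPKM in wildtype). Their ratios ran from 0.842 for Tac1 to 1.28 for Ppp1r1b, beside 3.47 for Drd1a. The 11 listed markers summed to 91.6 FPKM in Nes-cKO and 67.8 FPKM in wildtype, and Penk made up most of this difference. The part of striatal tissue in the Drd1a value was not tested.

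Serotonin receptor genes moved in both directions, most plainly within the Htr5 pair. Htr5a, on mm9 chromosome 5 from 28168487 to 28181626, encodes a Gi/o-coupled receptor and stood at 3.94 FPKM in Nes-cKO and 2.10 FPKM in wildtype. Its ratio was 1.88, with q = 0.00152 in the authors' deposited table. Htr5b, on mm9 chromosome 1 from 123406350 to 123425042, is its paralog, which encodes a receptor in rodents but not in humans. It fell to 1.81 FPKM in Nes-cKO, against 2.67 FPKM in wildtype, a ratio of 0.679, and its q was 0.0436 in the authors' deposited table. The order of the pair differed between the genotypes, with the level of Htr5a 2.17 times that of Htr5b in Nes-cKO and 0.786 of it in wildtype.

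Htr1f was the other serotonin receptor gene that fell. It encodes a Gi/o-coupled receptor, lies on mm9 chromosome 16 from 64924555 to 65105610, and stood at 0.2998 FPKM in Nes-cKO and 0.566 FPKM in wildtype. Its ratio was 0.529, and its q was 0.0363 in the authors' deposited table. The wildtype value alone took it past the floor. The other Htr1 genes past the floor had lower values in Nes-cKO too but did not pass. Htr1a, the inhibitory receptor gene of hippocampal pyramidal cells and of serotonin neurons themselves, had 5.19 FPKM in Nes-cKO and 6.42 FPKM in wildtype, with q = 0.182 in the authors' deposited table. Htr1b, a receptor gene of axon terminals, had 0.634 FPKM in Nes-cKO and 0.852 FPKM in wildtype, and the authors' deposited table gives a q of 0.819.

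The Gs-coupled serotonin receptor genes all had higher values in Nes-cKO, and none of them passed. Higher values in Nes-cKO were also found for 7900 of all 13874 tested genes past the floor. Htr4 had 3.14 FPKM in Nes-cKO and 2.41 FPKM in wildtype, with q = 0.113 in the authors' deposited table. Htr6 had 2.11 FPKM in Nes-cKO and 1.61 FPKM in wildtype, and Htr7 had 2.95 FPKM in Nes-cKO and 2.58 FPKM in wildtype, with q-values of 0.450 and 0.752 in the authors' deposited table.

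Among the Gq-coupled group, Htr2c was the most abundant serotonin receptor gene in Nes-cKO, at 7.09 FPKM, against 6.35 FPKM in wildtype, where Htr1a was slightly above it. Its q was 0.733 in the authors' deposited table. Choroid plexus also makes Htr2c in quantity, and of 5 choroid plexus markers past the floor Lbp, Ttr and Enpp2 fell while Kl and Sostdc1, at 1.05 and 1.24 times the wildtype level, did not pass. Aqp1, below the floor, was higher in Nes-cKO, at 0.480 FPKM against 0.125 FPKM in wildtype, with q = 0.00152 in the authors' deposited table. Ttr, the transthyretin gene, had 7.51 FPKM in Nes-cKO and 12.4 FPKM in wildtype. The 11 listed markers summed to 42.7 FPKM in Nes-cKO and 58.1 FPKM in wildtype. Enpp2 alone gave 28.4 FPKM of this sum in Nes-cKO and 39.0 FPKM in wildtype, so the sum mostly follows Enpp2 and Ttr. The part of choroid plexus in the Htr2c value was not tested. Htr2a, the excitatory receptor gene of cortical principal cells, had 1.30 FPKM in Nes-cKO and 1.45 FPKM in wildtype. Htr3a, which encodes the obligatory subunit of the serotonin-gated channel and marks a class of interneurons, had 4.996 FPKM in Nes-cKO and 4.887 FPKM in wildtype, a ratio of 1.02. Htr1d, Htr2b and Htr3b lay below the floor, at 0.109, 0.0758 and 0.0132 FPKM in Nes-cKO and at 0.0419, 0.0177 and 0.0160 FPKM in wildtype.

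**Figure D2:**
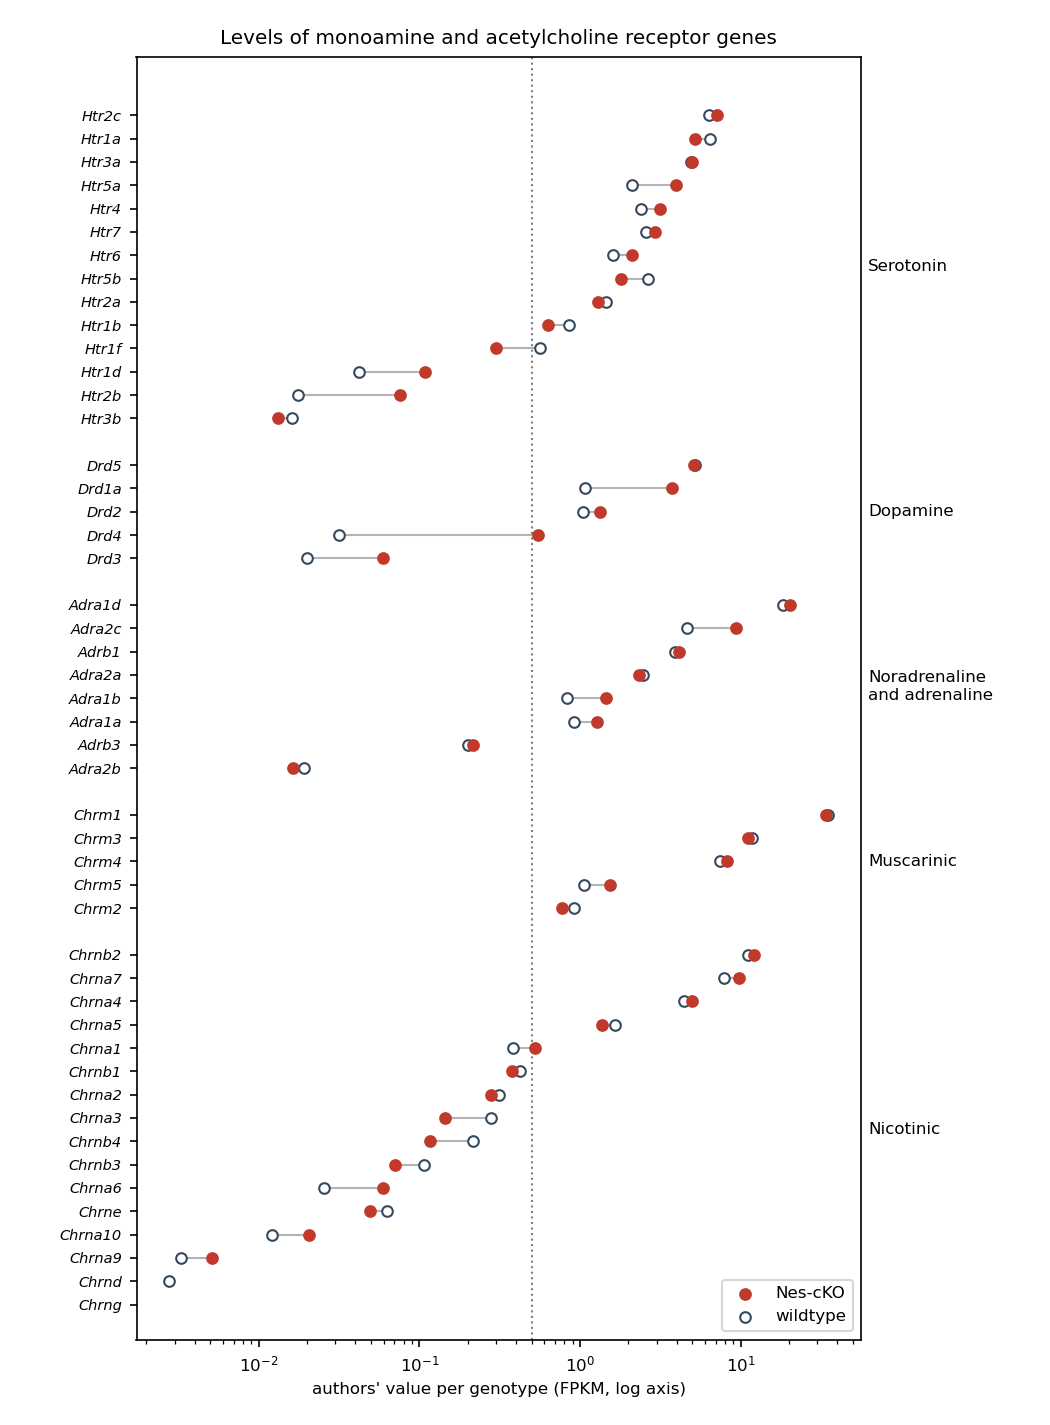
FPKM of 48 of the 49 receptor genes on a log axis, in Nes-cKO (filled) and wildtype (open), ordered by the Nes-cKO level within each transmitter group; the dotted line marks the floor of 0.5 FPKM. Chrm1 is the most abundant gene in both genotypes, at 33.9 FPKM in Nes-cKO and 35.0 FPKM in wildtype, and values listed at 0 (Chrnd in Nes-cKO, Chrng in both) are not drawn.

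Adrenergic receptor genes had higher values in Nes-cKO for 6 of the 7 past the floor, and 2 of these rose. Of all 13874 tested genes past the floor, 7900 had higher values in Nes-cKO and 4.67% rose. With so few adrenergic genes these counts are a description. Adra2c, on mm9 chromosome 5 from 35621215 to 35624412, encodes a Gi/o-coupled receptor that also acts as an autoreceptor on noradrenergic terminals. It stood at 9.37 FPKM in Nes-cKO and 4.65 FPKM in wildtype, a ratio of 2.01 with q = 0.00152 in the authors' deposited table. Its paralog Adra2a had 2.34 FPKM in Nes-cKO and 2.48 FPKM in wildtype, with q = 0.966 in the authors' deposited table. Adra2c was the more abundant of the pair in both genotypes, by 4.01 times in Nes-cKO and 1.88 times in wildtype. The third Gi/o-coupled gene, Adra2b, was near 0, at 0.0163 FPKM in Nes-cKO and 0.0190 FPKM in wildtype.

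The Gq-coupled Adra1 genes spanned a wide range of levels. Adra1b, on mm9 chromosome 11 from 43588108 to 43649834, rose to 1.46 FPKM in Nes-cKO, against 0.832 FPKM in wildtype. Its ratio was 1.75, with q = 0.00390 in the authors' deposited table. Adra1a had 1.28 FPKM in Nes-cKO and 0.920 FPKM in wildtype, a ratio of 1.39 that did not pass, with q = 0.0988 in the authors' deposited table. Adra1d, the second most abundant of the 49 genes, had 20.2 FPKM in Nes-cKO and 18.5 FPKM in wildtype, with q = 0.828 in the authors' deposited table. Adra1b lay far below Adra1d in both genotypes, at 0.0721 of its level in Nes-cKO and 0.0450 of it in wildtype.

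Adrb1, which encodes a Gs-coupled beta receptor, had 4.11 FPKM in Nes-cKO and 3.88 FPKM in wildtype and did not pass, at a q of 0.967 in the authors' deposited table. Adrb3, the beta receptor gene of fat tissue, lay below the floor, at 0.216 FPKM in Nes-cKO and 0.201 FPKM in wildtype.

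Muscarinic receptor genes included the most abundant of the 49, and none of them passed. With 7.06% of all tested genes past the floor passing, 0 of 5 was near that share. Chrm1, the main muscarinic receptor gene of forebrain principal cells, stood at the 91.4th percentile of all genes of the table in Nes-cKO and the 92.1st in wildtype. Its ratio was 0.970, with q = 0.983 in the authors' deposited table. Chrm3, Gq-coupled like Chrm1, had 11.1 FPKM in Nes-cKO and 11.8 FPKM in wildtype. The Gi/o-coupled Chrm4 had 8.17 FPKM in Nes-cKO and 7.41 FPKM in wildtype. Chrm2, a Gi/o-coupled receptor gene of interneurons and cholinergic terminals, had 0.769 FPKM in Nes-cKO and 0.918 FPKM in wildtype. The widest ratio of the 5 was that of Chrm5, 1.46, with 1.54 FPKM in Nes-cKO and 1.06 FPKM in wildtype, and its q was 0.169 in the authors' deposited table. The summed level of the 5 genes was 55.5 FPKM in Nes-cKO and 56.2 FPKM in wildtype.

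Of the 16 nicotinic subunit genes, 5 were past the floor and none passed, again near the 7.06% of all tested genes. Chrnb2 and Chrna4, whose products assemble into the main heteromeric receptor of the brain, had 12.1 and 5.01 FPKM in Nes-cKO and 11.2 and 4.44 FPKM in wildtype. Chrna7, which forms a calcium-permeable receptor on its own and is typical of hippocampal interneurons, had 9.77 FPKM in Nes-cKO and 7.87 FPKM in wildtype, with q = 0.217 in the authors' deposited table. Chrna5, an accessory subunit gene, had 1.36 FPKM in Nes-cKO and 1.65 FPKM in wildtype. The ratios of these neuronal subunit genes lay between 0.828 and 1.24. A p that misses the threshold does not show that they were equal, and with no values per mouse no interval of the difference can be given.

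Subunit genes typical of other sites were at the bottom of the range. The muscle subunit gene Chrna1 had 0.529 FPKM in Nes-cKO and 0.385 FPKM in wildtype, past the floor through its Nes-cKO value only. The other muscle subunit genes Chrnb1, Chrne, Chrnd and Chrng had 0.380, 0.0491, 0 and 0 FPKM in Nes-cKO and 0.421, 0.0630, 0.00279 and 0 FPKM in wildtype. Of 9 skeletal muscle markers only Acta1, at 3.82 FPKM in Nes-cKO and 3.03 FPKM in wildtype, was past the floor. The hair cell subunit genes Chrna9 and Chrna10 were at or below 0.0206 FPKM in both genotypes. Chrna2, found in interneurons of the stratum oriens, had 0.281 FPKM in Nes-cKO and 0.315 FPKM in wildtype.

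Chrna3 and Chrnb4, which form the receptor of autonomic ganglia and the medial habenula, lie beside Chrna5 on chromosome 9, with gaps of 3563 and 1596 bases between neighbours. Chrna3 had 0.145 FPKM in Nes-cKO and 0.281 FPKM in wildtype, with q = 0.0689 in the authors' deposited table. Chrnb4 had 0.117 FPKM in Nes-cKO and 0.217 FPKM in wildtype and was not tested by the authors. All 3 genes of the cluster had lower values in Nes-cKO, and none passed. Of 9 thalamus and habenula markers past the floor, Lhx9, Prkcd and Ntng1 fell and 6 did not pass. The 11 markers in the table summed to 25.01 FPKM in Nes-cKO and 32.97 FPKM in wildtype. Pou4f1, a defining factor of medial habenula neurons, was at 0.00679 FPKM in Nes-cKO and 0.0589 FPKM in wildtype, while Gpr151, another habenular gene, had 0.762 FPKM in Nes-cKO and 0.568 FPKM in wildtype. The part of these tissues in the Chrna3 and Chrnb4 values was not tested. The remaining subunit genes Chrna6 and Chrnb3, known from dopamine neurons, had 0.0590 and 0.0710 FPKM in Nes-cKO and 0.0257 and 0.107 FPKM in wildtype.

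**Figure D3:**
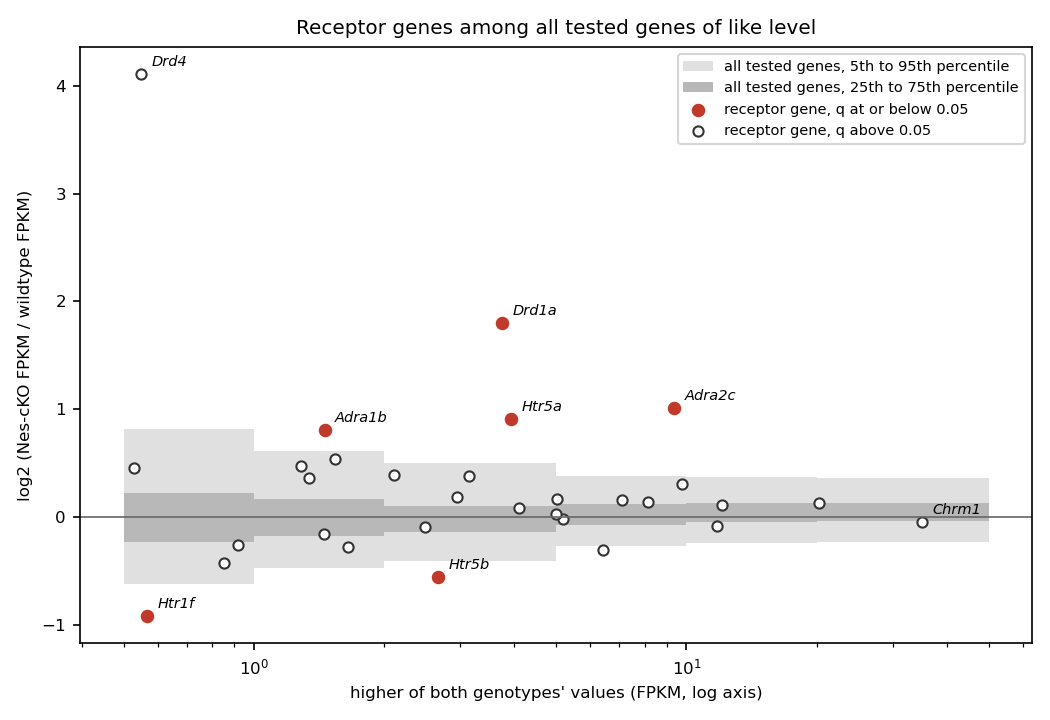
Log2 ratio of the Nes-cKO over the wildtype FPKM (vertical axis) against the higher of both values (log axis) for 31 of the 32 receptor genes past the floor, over the spread of all tested genes in the same level band (grey). The 6 filled points, with an authors' q at or below 0.05, lie outside the 5th to 95th percentile of their band, as do the open points of Drd4 and Htr1a. The q and the ratio come from the same data, so the place of the filled points is no separate support.

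Summed by transmitter, the adrenergic genes came to 39.6 FPKM in Nes-cKO and 31.9 FPKM in wildtype and the dopamine receptor genes to 10.8 FPKM in Nes-cKO and 7.37 FPKM in wildtype. Serotonin receptor genes summed to 33.6 FPKM in Nes-cKO and 32.0 FPKM in wildtype, and nicotinic subunit genes to 29.9 FPKM in Nes-cKO and 27.0 FPKM in wildtype. The median log2 ratio of the 32 genes past the floor was 0.15, and that of all tested genes past it was 0.03. Of the 32, 4 were past the floor in 1 genotype only (among them Drd4 and Chrna1 in Nes-cKO and Htr1f in wildtype), so the median is a description. By coupling, 2 rose and 2 fell of 11 Gi/o-coupled receptor genes past the floor, 1 rose of 8 Gq-coupled and 1 rose of 7 Gs-coupled ones. Of all tested genes past the floor 7.06% passed, and with so few genes per class these counts are a description. Ratios of all tested genes ran wider at low levels. The 5th and 95th percentiles of their log2 ratios were -0.61 and 0.82 between 0.5 and 1 FPKM. Between 20 and 50 FPKM they were -0.23 and 0.37. Between 2 and 5 FPKM, where 9 of the receptor genes lie, they were -0.41 and 0.50. Of the 2551 tested genes in that last band 7.84% passed. The log2 ratios of Drd1a and Htr5a, 1.80 and 0.91, were above this band and that of Htr5b, -0.56, below it. These genes had passed on the same data, so their place outside the band is a description.

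Markers of other brain regions and cell types differed between the genotypes as well. Of 11 cerebellum markers past the floor, 9 rose, none fell and 2 did not pass. Those that did not pass were Gdf10, at 0.883 times the wildtype level, and Pcp2, at 2.58 times that level. The q of Pcp2 was 0.884 in the authors' deposited table. The 12 listed markers summed to 81.8 FPKM in Nes-cKO and 38.4 FPKM in wildtype. Gabra6, which encodes a GABA receptor subunit of cerebellar granule cells, had 10.5 FPKM in Nes-cKO and 3.51 FPKM in wildtype. Of 12 oligodendrocyte markers, 10 fell, and of 14 interneuron markers past the floor, Npy, Calb2 and Reln rose and 11 did not pass. Of 10 neocortex markers past the floor, 3 rose, among them Rprm (46.6 FPKM in Nes-cKO and 15.9 FPKM in wildtype), 1 fell and 6 did not pass. Gfap and Aqp4 rose of 8 astrocyte markers, Kdr rose of 9 endothelial and mural cell markers, and of 8 microglia markers 0 passed and 0 had an unadjusted p of 0.05 or less. The part of these differences in the receptor values was not tested.

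Promoters of 5 of the 6 genes that differed, all but Htr5b, were searched for common promoter elements and for those bound by activity-dependent factors, and are shown to let the genes that moved together be compared. RefSeq promoters (GRCm38.p6, 250 bases before to 50 bases after each start) were available for 37 of the 49 genes, 42 promoters in all, and were searched on both strands. The cyclic AMP response element, or CRE, was searched as TGACGTCA and its half-site, which every full CRE contains, as TGACG. The site of AP-1, the Fos and Jun dimer, was searched as TGANTCA and that of the Egr factors as GCGTGGGCG. Of general promoter elements, the GC box was searched as GGGCGG and the TATA box as TATAAA. Capitals mark a match to any of these in the promoters below, 5′ to 3′ on the gene's strand. The first is the upstream start of Drd1a (chr13:54055609-54055908, minus strand), then Adra2c (chr5:35278316-35278615, plus strand), Htr5a (chr5:27841697-27841996, plus strand) and the upstream start of Adra1b (chr11:43901188-43901487, minus strand). Htr1f (chr16:65105735-65106034, minus strand), which fell, is given for comparison.
Drd1a: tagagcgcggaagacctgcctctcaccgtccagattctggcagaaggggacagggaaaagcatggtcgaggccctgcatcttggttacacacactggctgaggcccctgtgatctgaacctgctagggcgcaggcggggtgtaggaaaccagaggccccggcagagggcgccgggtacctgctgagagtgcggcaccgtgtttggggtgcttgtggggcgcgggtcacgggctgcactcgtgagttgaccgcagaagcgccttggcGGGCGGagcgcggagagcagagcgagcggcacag
Adra2c: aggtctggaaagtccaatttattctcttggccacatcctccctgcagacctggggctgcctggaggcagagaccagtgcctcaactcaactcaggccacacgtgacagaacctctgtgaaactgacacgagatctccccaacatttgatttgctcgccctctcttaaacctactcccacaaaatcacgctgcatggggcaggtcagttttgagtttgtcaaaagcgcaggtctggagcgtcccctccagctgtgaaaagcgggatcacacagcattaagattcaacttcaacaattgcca
Htr5a: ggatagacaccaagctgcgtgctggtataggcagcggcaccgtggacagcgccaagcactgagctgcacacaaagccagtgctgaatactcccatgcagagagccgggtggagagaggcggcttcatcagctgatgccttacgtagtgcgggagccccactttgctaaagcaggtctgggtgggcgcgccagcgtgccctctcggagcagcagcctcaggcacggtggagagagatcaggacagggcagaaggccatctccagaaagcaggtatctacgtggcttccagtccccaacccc
Adra1b: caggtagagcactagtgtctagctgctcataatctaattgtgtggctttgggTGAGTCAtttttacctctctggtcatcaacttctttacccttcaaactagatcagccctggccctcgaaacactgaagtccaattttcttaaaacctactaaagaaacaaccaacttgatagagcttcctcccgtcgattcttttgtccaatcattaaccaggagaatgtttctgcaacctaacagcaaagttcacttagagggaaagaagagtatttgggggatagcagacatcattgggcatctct
Htr1f: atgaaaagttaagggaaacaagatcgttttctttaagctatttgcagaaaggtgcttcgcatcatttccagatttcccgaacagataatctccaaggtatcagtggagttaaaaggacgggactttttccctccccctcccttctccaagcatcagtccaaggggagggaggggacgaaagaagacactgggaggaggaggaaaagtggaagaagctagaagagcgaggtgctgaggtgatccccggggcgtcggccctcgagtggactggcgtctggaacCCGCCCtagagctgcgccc

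In the promoters shown, the 4 rising genes had no match in common, while the downstream starts of Drd1a and Adra1b held 1 and 2 GC boxes. The upstream Drd1a promoter held 1 GC box, 17 bases into the transcript, and Htr1f held 1 at base 32. The upstream Adra1b promoter held an AP-1 match at -198, and those of Adra2c and Htr5a held none of the motifs. The upstream and downstream Adra1b starts lie further apart than the authors' locus of the gene is long. That locus cannot hold both, and which start the measured Adra1b value belongs to was not determined. Full CRE letters were in 0 of the 42 receptor promoters and in 1.79% of 32851 promoters of the table. A GC box was in 23 of the 42 receptor promoters, 54.8%, and in 35.7% of all. A TATA box was in 2 of the 42, 4.76%, and in 13.6% of all. An AP-1 match was in 4 of the 42, 9.52%, and in 7.81% of all. A CRE half-site was in 6 of the 42, 14.3%, and in 20.8% of all. An Egr site was in 1 of the 42, 2.38%, and in 0.612% of all. With counts this small the shares are a description. These are matches of letters, not sites shown to be bound.

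Rbfox1 binds RNA at the letters TGCATG (written as DNA), in introns beside regulated exons and in 3′ untranslated regions, so the latter were searched in the GENCODE M21 transcript with the longest such region per gene. Of 47 receptor genes with one, 17 held the motif, 36.2%, against 33.5% of 18115 genes of the expression table. The regions had a median length of 1370 bases in receptor genes and 1012 bases in all, with 0.409 and 0.362 motifs per kilobase. Among the 6 genes that differed, Htr5a and Drd1a held it and Adra2c, Adra1b, Htr5b and Htr1f did not. The matches are shown with their flanks because they are the motif of the deleted protein in genes that rose (GRCm38, gene's strand, motif in capitals): Htr5a at chr5:27853819-27853848 and chr5:27854434-27854463, and Drd1a at chr13:54052489-54052518 on the minus strand.
Htr5a, first: gattcctgtctgTGCATGaaagcaatgcag
Htr5a, second: attgtctacatgTGCATGaattatgtactt
Drd1a: tgtaaaggtaggTGCATGcctttgttaatt

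Of the 11 genes past the floor with the motif, 2 differed between the genotypes, and of the 19 without it, 4 differed. Chrm1, Htr2a and Htr2c held 3, 4 and 4 copies and did not pass. No binding was measured in these samples. The authors' splicing tables, which list 320 events with a change in inclusion above 10 percentage points, held 0 events in the 49 receptor genes. Such events were listed for 2.09% of the 13938 genes of the table past the floor, so 0 among so few genes is near the background. That share was not matched to the receptor genes for the number of exons. In the pathway genes described next the authors' deposited table held 1, an 878 nt cassette exon of the potassium channel gene Kcnj9 with an inclusion of 73.4% in Nes-cKO and 62.0% in wildtype.

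Genes around the receptors were read from 6 lists of 103 genes in all, of which 85 were past the floor. Among these 12 rose and 2 fell at a q of 0.05 in the authors' deposited table, 16.5% of the 85, beside the 7.06% of all tested genes past the floor. These lists too were picked with results known. Of 11 genes past the floor for synthesis, transport and breakdown of the transmitters, 5 rose and 6 did not pass. Dbh and Th, the enzyme genes that make noradrenaline and catecholamines, had 0.922 and 0.846 FPKM in Nes-cKO and 0.283 and 0.280 FPKM in wildtype, ratios of 3.26 and 3.02. Both were past the floor through their Nes-cKO value only, and with a floor of 1 FPKM the pathway genes that rose numbered 10. Other genes that define noradrenergic neurons were near 0. The transporter gene Slc6a2 had 0.00817 FPKM in Nes-cKO and 0.00753 FPKM in wildtype, Phox2a was listed at 0 in both, and neither was tested by the authors. Th and Dbh were the only 2 past the floor of 14 markers of the nuclei that make these transmitters. Which cells or fibres the Th and Dbh values come from was not tested. Ache, which encodes the esterase that ends acetylcholine signals, rose 1.47-fold, to 32.4 FPKM in Nes-cKO against 22.1 FPKM in wildtype. The vesicular monoamine transporter gene Slc18a2 rose 1.43-fold and the plasma membrane monoamine transporter gene Slc29a4, outside the 4 named by rule, 1.41-fold. Chat, which encodes the enzyme that makes acetylcholine, had 0.0120 FPKM in Nes-cKO and 0.0341 FPKM in wildtype.

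Of 24 G protein, cyclase, phospholipase and potassium channel genes, Kcnj6 rose, Adcy1 fell and 22 did not pass, a share near the 7.06% of all tested genes. Adcy1, the calmodulin-stimulated adenylyl cyclase gene, had 48.7 FPKM in Nes-cKO and 90.1 FPKM in wildtype, a ratio of 0.541. Kcnj6, a channel gene opened through Gi/o-coupled receptors, had 18.6 FPKM in Nes-cKO and 13.9 FPKM in wildtype. Genes for the alpha subunits themselves did not pass, with Gnas at 672 FPKM in Nes-cKO and 682 FPKM in wildtype and Gnaq at 42.8 FPKM in Nes-cKO and 43.1 FPKM in wildtype. Adcy1 and Kcnj6 had a q at or below 0.0187 in the authors' deposited table.

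Of 15 genes for receptor kinases, arrestins and RGS proteins, 3 rose and 12 did not pass. RGS proteins speed the shut-off of G protein alpha subunits. Rgs2, which acts on Gq, had 19.6 FPKM in Nes-cKO and 7.88 FPKM in wildtype, a ratio of 2.49. Rgs4 had 81.1 FPKM in Nes-cKO and 45.0 FPKM in wildtype, and Rgs10 had 29.3 FPKM in Nes-cKO and 21.9 FPKM in wildtype. The receptor kinase genes Adrbk1 and Adrbk2 and the arrestin genes Arrb1 and Arrb2 were between 0.923 and 1.16 times the wildtype level and did not pass. Of 18 cyclic AMP pathway genes, the phosphodiesterase gene Pde4a rose, to 34.1 FPKM in Nes-cKO against 25.9 FPKM in wildtype, and 17 did not pass, again near that share.

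Of 9 nicotinic receptor partner genes past the floor, Lypd1 fell and 8 did not pass. Lypd1 encodes a membrane-anchored protein that binds nicotinic receptors and damps them, and had 21.7 FPKM in Nes-cKO and 31.3 FPKM in wildtype. The related Lynx1 had 105 FPKM in Nes-cKO and 101 FPKM in wildtype, and the assembly factor gene Ric3 had 16.7 FPKM in Nes-cKO and 17.3 FPKM in wildtype. Of 8 other receptor partner and histamine receptor genes, S100a10 and Flna rose and 6 did not pass. S100a10, whose product binds serotonin receptors and brings them to the membrane, had 22.5 FPKM in Nes-cKO and 14.8 FPKM in wildtype. The histamine receptor gene Hrh3 had 17.8 FPKM in Nes-cKO and 15.6 FPKM in wildtype, while Hrh4 and the trace amine receptor gene Taar1 were listed at 0 in both.

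**Figure D4:**
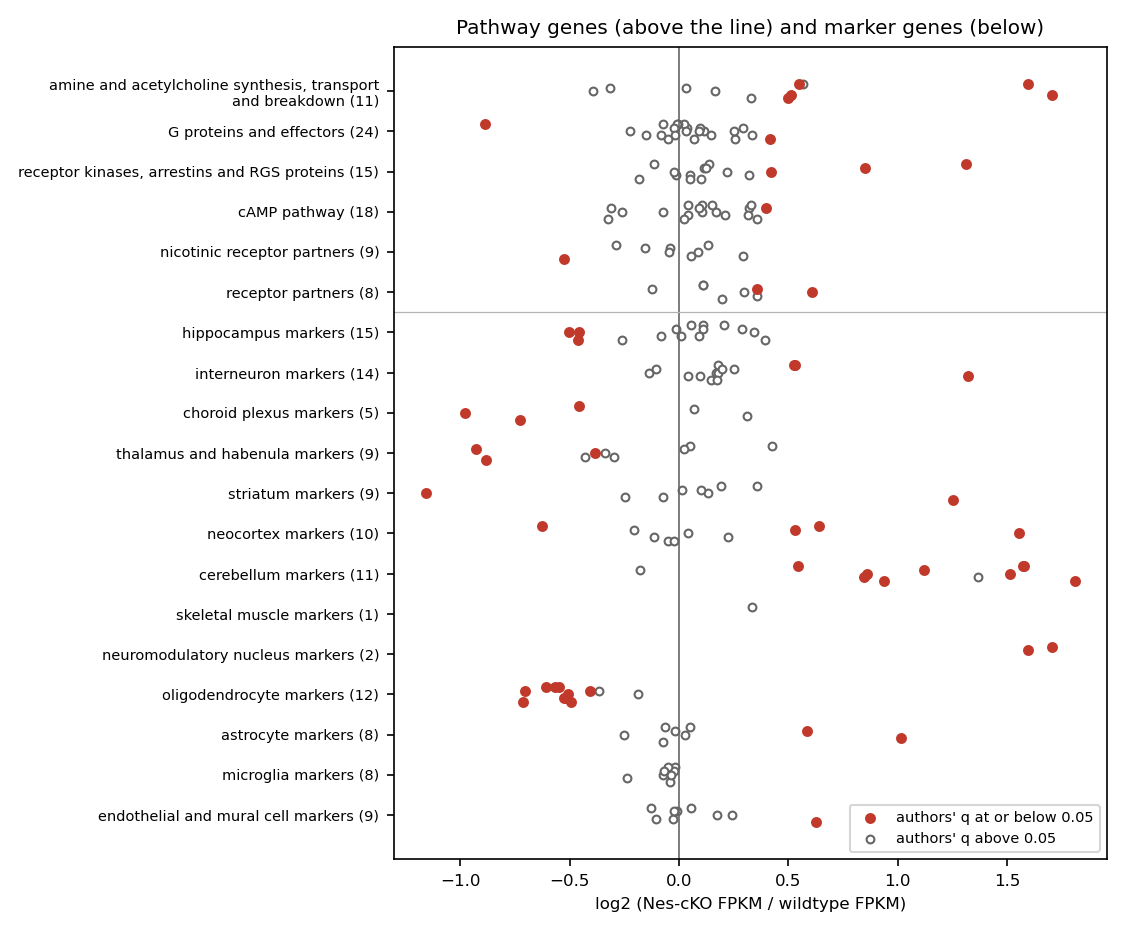
Log2 ratio of the Nes-cKO over the wildtype FPKM for genes with 0.5 FPKM or more in either genotype, for the 6 pathway lists (above the line) and the 13 marker lists (below it), with the number of genes in brackets; filled points have an authors' q at or below 0.05 and vertical offsets within a list carry no meaning. Cerebellum markers lie mostly to the right, with 9 of 11 filled, and oligodendrocyte markers to the left, with 10 of 12 filled.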

How the data were processed

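Total RNA was extracted with Trizol, and stranded mRNA libraries were sequenced in paired 50 bp reads, per the labels' protocols. CASAVA, Cufflinks, Cuffdiff and mm9 appear without versions in the submitters' processing notes. No aligner is given in the sources used here. Expression was deposited by the authors as 1 FPKM per gene and genotype, with p-values and q-values from their test of 3 Nes-cKO against 3 wildtype mice. Their splicing tables give, per the file headers, the inclusion of each event in each genotype as a fraction between 0 and 1. Reads per library are not given.

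From the authors' FPKM, log2 ratios of Nes-cKO over wildtype were computed with no pseudocount. The threshold was a deposited q of 0.05, and expression was not tested anew. Of the 49 genes, 35 had a test by the authors and 14 had too little signal for one. The authors' loci were written from base 1 in mm9, while sequences come from GRCm38 tables, and no coordinates were converted. The loci of Chrm2, Chrm4, Chrnb2, Chrne, Htr1b, Htr2b and Htr2c overlap those of other genes in the table and could share reads with them if strand was not used in counting, which is not stated.

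Genes named are the members, of which 1 is counted but not reported here, and per list up to 4 that passed or the 2 most abundant. Further genes were picked with their values in view. The members and lists were chosen with earlier results of these data known. Counting and motif steps were tested on simulated data. Python 3.11.15, numpy 2.4.6, pandas 2.3.3 and matplotlib 3.10.9 were used.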

Additional observations from a re-analysis of the deposited data

How the results depend on the processing

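At other settings the 6 receptor genes that differed became 4 at a q of 0.01 (Drd1a, Adra2c, Htr5a and Adra1b, with Htr5b and Htr1f lost), 7 at a q of 0.1 (with Adra1a added), 5 with a floor of 1 FPKM (without Htr1f) and 6 with no floor. At the authors' unadjusted p of 0.05 the count was 13, with 10 genes above and 3 below wildtype in Nes-cKO, against 14.7% of all tested genes past the floor. The median log2 ratio of the receptor genes was 0.15, and it became 0.12 with a pseudocount of 1 FPKM, 0.12 when centred on the median of tested genes and 0.11 with a floor of 0.1 FPKM. No gene past the floor changed sign under a pseudocount of 0.1 or 1 FPKM or under centring, but a pseudocount of 1 FPKM took the log2 ratio of Drd4 to 0.59, of Htr1f to -0.27, of Adra1b to 0.42 and of Drd1a to 1.19. The 14 pathway genes that passed became 20 at a q of 0.1 and 12 with a floor of 1 FPKM. No paired analysis was possible because the deposited columns hold 1 value per genotype, and for the same reason fits that leave out a mouse were not run. Low values such as those of Drd4 and Htr1f rest on few fragments, and depth per library is unknown.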

Other observations

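The order of levels among the 49 receptor genes can be read from the same values. In Nes-cKO the 5 most abundant receptor genes were Chrm1, Adra1d, Chrnb2, Chrm3 and Chrna7, and in wildtype they were Chrm1, Adra1d, Chrm3, Chrnb2 and Chrna7. Adra2c took rank 6 in Nes-cKO and rank 11 in wildtype, and Drd1a rank 15 in Nes-cKO and rank 22 in wildtype, of the 49. Htr1f took rank 33 in Nes-cKO and rank 29 in wildtype. The ranks rest on 1 value per genotype and have no replicate check.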
